A study of Mus musculus with 6 samples.

Results

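The HSP70 system described here is a set of 10 mouse genes: the chaperones Hspa1a, Hspa1b and Hspa8, the HSP110 relatives Hspa4, Hspa4l and Hsph1, the J-domain proteins Dnajb1 and Dnaja1, the cofactor Bag3 and the heat shock factor Hsf1. Members were taken as all probe sets annotated to one or more of these symbols and to no other gene, which gave 25 probe sets for 9 genes, of 18194 genes with a probe set of their own in the table. Hsf1 was listed with no probe set in the annotation used and was not analysed here. The genes were chosen with their difference between TDP-43 siRNA and control siRNA already known, so their values in that comparison are given as a description, without p-values.

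Transcript levels were measured on 6 Affymetrix 3' expression arrays in MIN6, a mouse insulinoma line that makes insulin. On 3 arrays the cells had been electroporated with 100 pmol of a TDP-43 siRNA (TDP-43, the product of Tardbp, binds RNA), and on 3 with 100 pmol of a control siRNA. The cells were otherwise grown alike, and the line is the same throughout. Nothing in the labels says that the 3 arrays of a group came from separate cultures or occasions, so the spread between them may be technical.

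HSP70 chaperones bind exposed hydrophobic stretches of unfolded proteins and release them in a cycle driven by ATP. J-domain proteins deliver clients and stimulate ATP hydrolysis, and exchange factors such as the HSP110 proteins and the BAG proteins open the chaperone again. Under proteotoxic stress HSF1 binds heat shock elements in the promoters of the inducible genes and raises their transcription. This cytosolic system is distinct from the chaperones of the endoplasmic reticulum that fold secreted proteins such as insulin.

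Each array gave a signal, on a linear scale with a common target, for 45101 probe sets, with median signals between 72.3 and 79.97. Tardbp was lower on all 3 TDP-43 siRNA arrays for all 5 of its probe sets. Its brightest probe set, 1423723_s_at, read 2257, 2249 and 1836 in TDP-43 siRNA arrays, against 3748, 3939.6 and 3699 in control arrays (log2 difference -0.85, SE 0.09, n = 3 per group, limma adjusted p = 0.00216). This was the smallest fall of the 5. The other log2 differences were -0.86 (1455655_a_at), -1.24 (1436318_at), -1.27 (1428467_at) and -1.41 (1434419_s_at). The third TDP-43 siRNA array had the lowest Tardbp signal on each of the 5 probe sets. The 10 beta cell markers with a probe set, among them Ins2, Iapp, Pdx1 and Chga, were all measured above the filter described below and summed to between 87606 and 96226 in TDP-43 siRNA arrays and between 90188 and 92008 in control arrays. The 14 markers of other cell types summed to between 396 and 692 in TDP-43 siRNA arrays and between 376 and 622 in control arrays, and 9 of the 14 lay below the filter.

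Over the whole table, 158 of 27022 probe sets passed the limma test (Benjamini-Hochberg adjusted p below 0.05) once the dimmest 40% by mean signal had been removed. This is 0.585%, with 0.13% higher and 0.455% lower after TDP-43 siRNA. Of the 25 HSP70 system probe sets 24 were kept, and 1 of the 24 passed, higher, for Hspa4. Differences below are between the group means of log2(signal + 12), control siRNA subtracted from TDP-43 siRNA, each with the fit's standard error and 3 arrays per group. Of the 24, 22 lay above 0 and 2 below, with a median of 0.19 (range -0.24 to 0.97), beside a median of 0.01 over all probe sets kept. In 11 of the 24 all 3 TDP-43 siRNA arrays lay above all 3 control arrays, an arrangement held by 8.74% of all probe sets. The opposite arrangement was found in 0 of the 24, beside 8.45% of all probe sets. The 24 are not independent, since several read the same transcript. As the genes were chosen on this comparison, these counts describe them and test nothing. More transcripts in every cell and more cells expressing them cannot be told apart in bulk RNA.

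**Figure D1:**
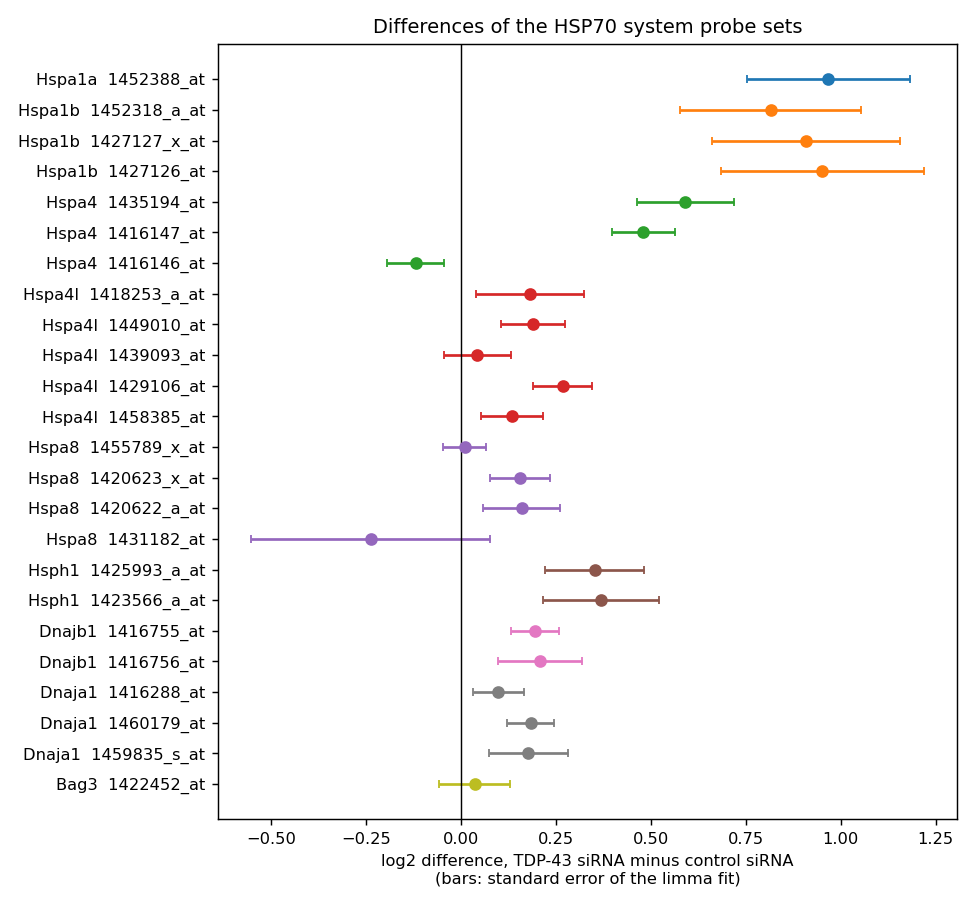
Log2 difference (x axis, TDP-43 siRNA minus control siRNA) of the 24 HSP70 system probe sets kept by the filter (y axis, coloured by gene). Points are the fitted difference and bars its standard error (3 arrays per group). The 4 probe sets of Hspa1a and Hspa1b lie between 0.82 and 0.97, and the 3 of Hspa4 lie on both sides of 0.

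Hspa1a and Hspa1b, the stress-inducible HSP70 genes, had the largest differences of the system. They are neighbouring, near-identical copies, and their probe sets may read both transcripts, so the 2 genes cannot be told apart with certainty. Hspa1a (1452388_at) read 1495, 1134 and 2311 in TDP-43 siRNA arrays, against 778, 700.4 and 942 in control arrays. All 3 TDP-43 siRNA arrays lay above the controls, and the third was the highest. The mean was 1647 ± 603 in TDP-43 siRNA arrays and 807 ± 123 in control arrays (SD, n = 3 each), a log2 difference of 0.97 (SE 0.22), or 1.96-fold on the scale with 12 added.

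Hspa1b also had the third TDP-43 siRNA array highest on its 3 probe sets. On 1427126_at the signals were 2615, 2447 and 4919 in TDP-43 siRNA arrays, against 1438, 1295 and 2313 in control arrays (log2 difference 0.95, SE 0.27). On 1427127_x_at they were 3068, 2874 and 5495 in TDP-43 siRNA arrays, against 1727, 1566 and 2688 in control arrays (0.91, SE 0.25). On the brightest, 1452318_a_at, they were 5025, 5687 and 9238 in TDP-43 siRNA arrays, against 3319.5, 2851 and 5099 in control arrays (0.82, SE 0.24). The groups were apart on the first pair of probe sets. On 1452318_a_at they overlapped, since the third control array lay above the first TDP-43 siRNA array.

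The third array was the highest of its group for each of these 4 probe sets, in the TDP-43 siRNA group and in the control group. For Hspa1b 1427126_at the third array exceeded the mean of its group's other 2 by 0.96 (log2) in the TDP-43 siRNA group and by 0.76 in the control group. For Hspa1a these excesses were 0.82 in the TDP-43 siRNA group and 0.35 in the control group. Without the third TDP-43 siRNA array, the log2 difference was 0.69 for Hspa1a and 0.63, 0.61 and 0.55 for the Hspa1b probe sets in the order above. Without both arrays numbered 3 it was 0.81 for Hspa1a and 0.88, 0.85 and 0.79 for Hspa1b.

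**Figure D2:**
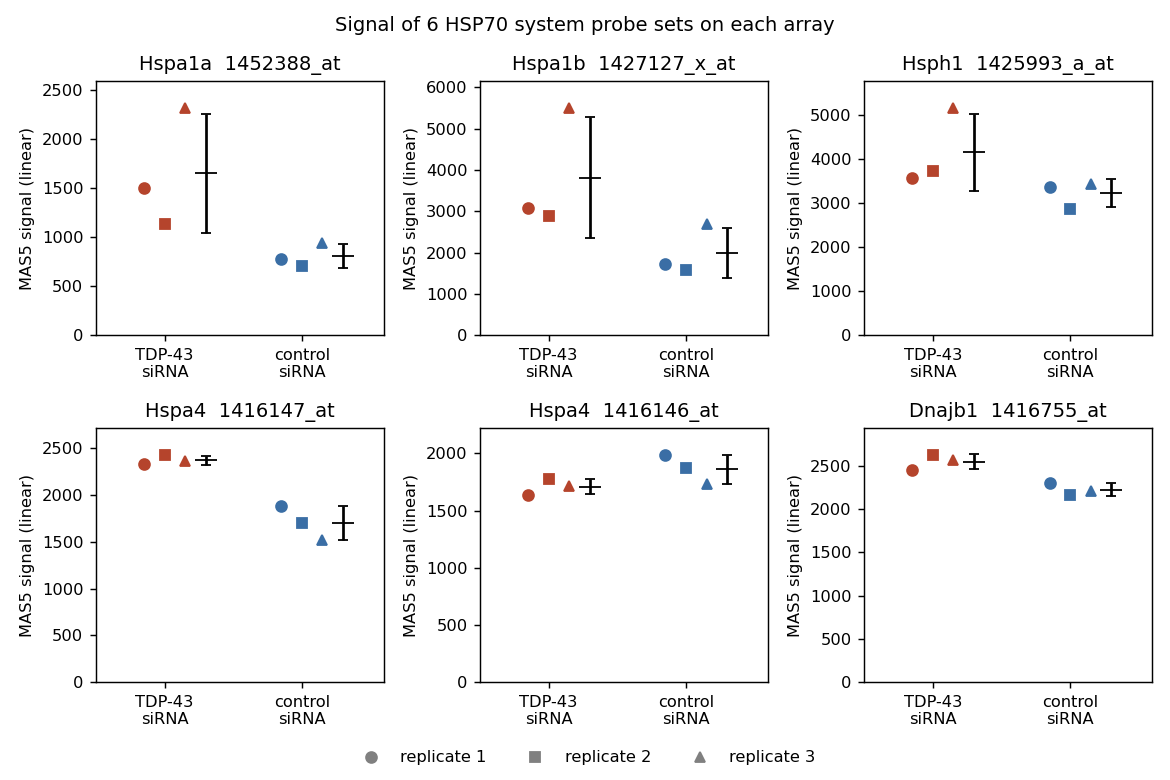
MAS5 signal (y axis, linear, from 0) of 6 HSP70 system probe sets on each array, with TDP-43 siRNA left and control siRNA right. Symbols mark the replicate number, and the black bars the mean and SD (n = 3). The third TDP-43 siRNA array (triangle) reaches 2311 for Hspa1a and 5161 for Hsph1, while for Hspa4 1416147_at the 3 TDP-43 siRNA arrays lie within 2326 to 2422.

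The promoters of these 2 genes are shown because each holds a pair of heat shock units and because the copies are so alike. RefSeq promoter windows (build GRCm38.p6, 250 bases before to 50 after the start site) were searched for heat shock elements as pairs of units, GAANNTTC or TTCNNGAA, and as runs of 3 units, GAANNTTCNNGAA or TTCNNGAANNTTC. Together these letters cover both strands, and a run of 3 units also holds both pair motifs. A pair was found in 15.1% and a run of 3 in 0.603% of 32851 windows. The sequences run 5′ to 3′ along the gene, with the matched bases in capitals. Hspa1a lies on the minus strand at chr17:34972107-34972406 and Hspa1b on the minus strand at chr17:34959189-34959488.
Hspa1a: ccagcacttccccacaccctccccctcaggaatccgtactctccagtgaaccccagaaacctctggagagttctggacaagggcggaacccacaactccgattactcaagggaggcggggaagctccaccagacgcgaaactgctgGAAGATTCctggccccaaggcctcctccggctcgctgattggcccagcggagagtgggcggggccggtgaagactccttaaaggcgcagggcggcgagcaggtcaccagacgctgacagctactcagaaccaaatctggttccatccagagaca
Hspa1b: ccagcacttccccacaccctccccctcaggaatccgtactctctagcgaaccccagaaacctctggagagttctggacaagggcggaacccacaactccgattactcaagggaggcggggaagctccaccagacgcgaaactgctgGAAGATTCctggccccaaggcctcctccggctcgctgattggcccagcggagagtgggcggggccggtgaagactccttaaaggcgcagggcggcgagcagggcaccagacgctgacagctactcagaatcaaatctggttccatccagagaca
Each window held 1 pair, GAAGATTC, which began at position -104 from the start site, and no run of 3. The 2 windows differed at 4 of 300 bases, T44C, C47T, G249T and T276C, counted from 1 at the 5′ end, with the base of Hspa1b first and that of Hspa1a second. None of these lay in the pair. A match of letters describes the window and is not a measured binding site.

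Hspa8, the constitutive cytosolic HSP70 (HSC70), showed small differences on bright probe sets. The brightest, 1455789_x_at, read 17864, 19429 and 19336 in TDP-43 siRNA arrays, against 17746.5, 18466 and 20108 in control arrays, a log2 difference of 0.01 (SE 0.06). On 1420623_x_at the signals were 16077, 18594 and 17896 in TDP-43 siRNA arrays, against 14335, 15379 and 17591 in control arrays (0.15, SE 0.08). On 1420622_a_at they were 13776, 11546 and 15178 in TDP-43 siRNA arrays, against 10881, 13489 and 11815 in control arrays (0.16, SE 0.10). The groups overlapped on all 3, and the difference on 1420622_a_at was 0.07 without the third TDP-43 siRNA array. The sign of 1455789_x_at turned in 4 of 17 alternative settings, each with 1 array removed. Several of the 17 cannot change a difference.

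A dim probe set of Hspa8, 1431182_at, was high on the third array of each group. It read 110.5, 102 and 224 in TDP-43 siRNA arrays, against 146, 118 and 252 in control arrays, and the third array of each group was its highest. The log2 difference was -0.24 (SE 0.31), and 0.05 without the third control array.

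Among the HSP110 proteins, which act as nucleotide exchange factors of HSP70, Hspa4 gave values that depended on the probe set. On 1416147_at, the probe set past the threshold, the signals were 2326, 2422 and 2359.9 in TDP-43 siRNA arrays, against 1882, 1704 and 1518 in control arrays. The TDP-43 siRNA arrays lay close together and above all controls, with a mean of 2369 ± 48.6 in TDP-43 siRNA arrays and 1701 ± 182 in control arrays (SD, n = 3 each) and a log2 difference of 0.48 (SE 0.08). With 1 array removed at a time, the call was kept in 2 of 6 fits, those without the first and without the third control array. It was also lost with no filter on low signals, with no intensity trend and with arrays centred on their medians. The replicate number as a block and the removal of both arrays numbered 3 lost it too. Another Hspa4 probe set, 1435194_at, passed with arrays centred on their medians and without the second TDP-43 siRNA array.

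The brightest probe set of Hspa4, 1435194_at, read 4489.6, 3142 and 3818 in TDP-43 siRNA arrays, against 2458, 2853 and 2238 in control arrays, a log2 difference of 0.59 (SE 0.13). The groups were apart, and here the first TDP-43 siRNA array was the highest. On 1416146_at the signals were 1639, 1773 and 1715 in TDP-43 siRNA arrays, against 1982, 1869 and 1731 in control arrays, a log2 difference of -0.12 (SE 0.07) with overlapping groups. The fourth Hspa4 probe set, 1440575_at, lay below the filter with 8.88, 30.0 and 45.5 in TDP-43 siRNA arrays, against 6.79, 7.22 and 7.54 in control arrays. Which part of the transcript each probe set reads was not known here, and the cause of the disagreement was not tested.

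The Hspa4 promoter window is shown for contrast with the inducible pair, since Hspa4 also lay higher on 2 of its 3 probe sets kept. It lies on the minus strand at chr11:53300430-53300729 (GRCm38.p6) and held neither a pair nor a run of heat shock units.
Hspa4: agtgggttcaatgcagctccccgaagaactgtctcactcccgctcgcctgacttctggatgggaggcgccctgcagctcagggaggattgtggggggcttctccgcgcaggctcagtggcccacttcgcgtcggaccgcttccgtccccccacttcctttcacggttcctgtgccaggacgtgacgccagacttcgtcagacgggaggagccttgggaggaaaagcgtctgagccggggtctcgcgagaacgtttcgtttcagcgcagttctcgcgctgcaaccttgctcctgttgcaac
That these letters were not found says nothing about binding of HSF1 elsewhere.

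Hsph1, the stress-inducible HSP110 (HSP105), had both probe sets apart between groups. On 1425993_a_at the signals were 3583, 3733 and 5161 in TDP-43 siRNA arrays, against 3372, 2858 and 3443 in control arrays (log2 difference 0.35, SE 0.13). On 1423566_a_at they were 3417, 3188 and 5248 in TDP-43 siRNA arrays, against 2946, 2912 and 3087 in control arrays (0.37, SE 0.15). The third TDP-43 siRNA array stood far above the rest on both, and without it the log2 differences were 0.19 and 0.15.

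The Hsph1 window is shown because, of the members with a window in the table, it was the one that held a run of 3 units. RefSeq gives 2 start sites, and the window of one, on the minus strand at chr5:149636287-149636586 (GRCm38.p6), held a pair at position -33 and a run of 3 units, TTCTGGAAAGTTC, at position 36 past the start site. Matched bases are in capitals.
Hsph1: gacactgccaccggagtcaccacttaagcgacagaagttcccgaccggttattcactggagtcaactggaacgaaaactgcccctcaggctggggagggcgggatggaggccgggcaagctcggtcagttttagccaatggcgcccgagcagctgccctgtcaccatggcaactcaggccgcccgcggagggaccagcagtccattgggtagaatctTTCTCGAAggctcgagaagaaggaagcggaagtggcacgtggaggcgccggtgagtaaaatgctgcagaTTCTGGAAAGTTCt
Of the 12 windows of 8 members in the table, 6 held a pair and 2 a run of 3 units, the latter both of Hsph1 and overlapping. The members with a pair were Hspa1a, Hspa1b, Hsph1, Dnaja1 and Bag3. For Dnaja1 the pair lay in the window that begins at chr4:40722218, at position -124. The Dnaja1 windows that begin at 40722672 and 40722680 held none. The Bag3 pair lay past the start site, at position 42.

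Hspa4l, the HSP110 relative also called APG-1, had 5 probe sets with small positive differences. The largest was on 1429106_at, which read 925, 901 and 926 in TDP-43 siRNA arrays, against 772, 786 and 724 in control arrays (log2 difference 0.27, SE 0.08). On that probe set and on 1458385_at (0.13, SE 0.08) the TDP-43 siRNA arrays lay above all controls. On 1449010_at (0.19, SE 0.09) and 1439093_at (0.04, SE 0.09) the groups overlapped. The brightest, 1418253_a_at, read 2012, 2337 and 3159 in TDP-43 siRNA arrays, against 2095, 2044 and 2376 in control arrays (0.18, SE 0.14). Its difference came to 0.00 without the third TDP-43 siRNA array.

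Bag3, a BAG-domain exchange factor that links HSP70 clients to autophagy, differed by less than the spread between its arrays. It read 729.7, 725 and 788 in TDP-43 siRNA arrays, against 810.2, 676 and 706 in control arrays, a log2 difference of 0.04 (SE 0.09). The groups overlapped, and the highest array was a control.

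Dnajb1 and Dnaja1, the J-domain proteins of the cytosol that work with HSP70, were slightly higher. Dnajb1 (1416755_at) read 2453, 2618 and 2562 in TDP-43 siRNA arrays, against 2302, 2157 and 2208 in control arrays (log2 difference 0.19, SE 0.06). The groups were apart, and the third TDP-43 siRNA array did not stand out. The second Dnajb1 probe set, 1416756_at, read 1430.5, 1457 and 1831 in TDP-43 siRNA arrays, against 1334, 1233 and 1502 in control arrays (0.21, SE 0.11). Its groups overlapped, and the difference was 0.09 without the third TDP-43 siRNA array.

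The brightest Dnaja1 probe set, 1416288_at, read 8431, 8616 and 9986 in TDP-43 siRNA arrays, against 8516, 8353 and 8317 in control arrays (log2 difference 0.10, SE 0.07). The first TDP-43 siRNA array lay within the control range, and the difference was 0.02 without the third TDP-43 siRNA array. On 1460179_at the signals were 5035, 5232 and 5659.7 in TDP-43 siRNA arrays, against 4656, 4857 and 4505 in control arrays (0.18, SE 0.06), with the groups apart. On 1459835_s_at, whose probes can read more than 1 transcript, the difference was 0.18 (SE 0.11) with overlapping groups.

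The array profile shows how far the third TDP-43 siRNA array carried these values. It was the highest of the 6 arrays in 13 of the 24 probe sets, beside 19.5% of all probe sets kept. The first TDP-43 siRNA array was the highest in 4 (17.9% of all) and the second in 3 (12.4% of all). The genes were chosen with their group difference known, which favours a TDP-43 siRNA array as the highest. Several probe sets also read the same transcript, so these counts describe the members and test nothing. The third TDP-43 siRNA array exceeded the mean of the other 2 TDP-43 siRNA arrays in 21 of the 24 (median 0.15), beside 50.7% of all (median 0.00). The excess was over 0.5 in 7 of the 24, beside 4.03% of all probe sets. These 7 were the 4 of Hspa1a and Hspa1b, 1 of Hsph1, 1 of Hspa4l and the dim Hspa8 probe set. The third control array also exceeded the mean of the other 2 control arrays, by a median of 0.10 in the 24, beside 0.00 over all. The third TDP-43 siRNA array had the lowest Tardbp signal, as given above. Whether that bears on its HSP70 values was not tested. Without both arrays numbered 3 21 of the 24 lay above 0, with a median of 0.17.

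**Figure D3:**
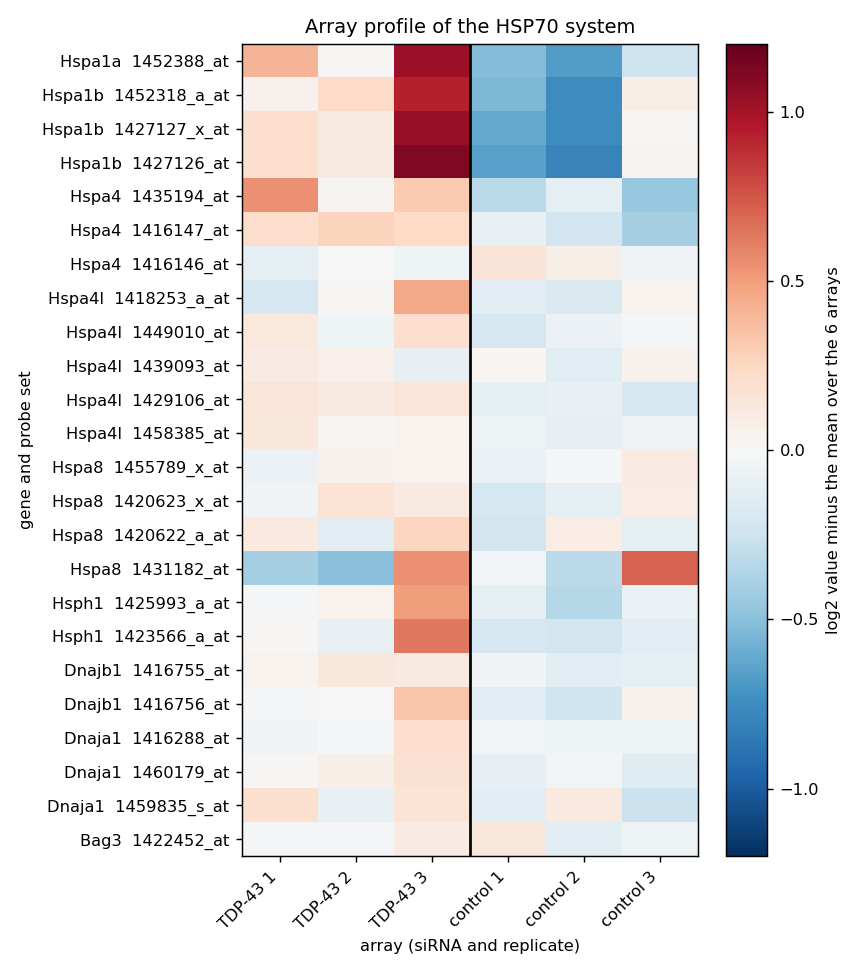
Log2 value of each of the 24 HSP70 system probe sets (rows) on each array (columns, TDP-43 siRNA left of the line, control siRNA right), minus the mean over the 6 arrays (colour). The third TDP-43 siRNA array is the highest in 13 of the 24 rows, most strongly for Hspa1a, Hspa1b and Hsph1.

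Likeness to the Hspa1a profile was measured as the root-mean-square difference of log2 values over the 6 arrays, each probe set centred on its own mean, for the brightest probe set of 12618 other genes. The median was 0.59, and Cth, the cysteine-making cystathionine gamma-lyase, was nearest at 0.14. Cth read 892, 804 and 1241 in TDP-43 siRNA arrays, against 497, 473 and 545 in control arrays. The next nearest genes were Rasgrp2, a Ras family exchange factor (0.18), Itgb8, an integrin subunit (0.19), Niban3 (0.21) and Serpinf1, which encodes the secreted protein PEDF (0.22). Rasgrp2, Niban3 and Serpinf1 were dim, with control means of 72.0, 33.6 and 58.6, beside the filter on mean signal at 41.5. The groups overlapped for Niban3. Of these 5 genes, Cth (limma adjusted p = 0.0285) and Itgb8 (limma adjusted p = 0.0346) passed the threshold. Rasgrp2 (limma adjusted p = 0.239), Niban3 (limma adjusted p = 0.419) and Serpinf1 (limma adjusted p = 0.319) did not. Hspa1b stood ninth at 0.22. Of the other members, Hsph1 stood at rank 95 (0.36) and Hspa4 at rank 178 (0.40). Hspa4l stood at rank 504 (0.44). Dnajb1, Dnaja1, Bag3 and Hspa8 lay at ranks from 1826 to 5210 (0.51 to 0.57). The profile of Hspa1a includes its difference between groups, so genes with a like difference stand near it. A probe set that hardly varied scores the spread of Hspa1a itself, so values close to the median of 0.59 need not show likeness.

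The wider chaperone network was followed in 6 lists of other genes, each represented by its brightest probe set. Of 102 genes measured, 0 passed in either direction, beside 0.626% of 12619 genes tested (0.127% higher, 0.499% lower; limma, Benjamini-Hochberg). At an unadjusted p below 0.05 (limma) there were 13 of the 102, beside 1537 of the 12619 genes tested, a similar share. The unadjusted counts of single lists below are to be read beside that share of all genes. The median difference was 0.04 with 63.7% of the 102 above 0, beside a median of 0.02 with 55% above 0 over all genes. The members, by the same rule of 1 probe set a gene, had a median of 0.19.

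**Figure D4:**
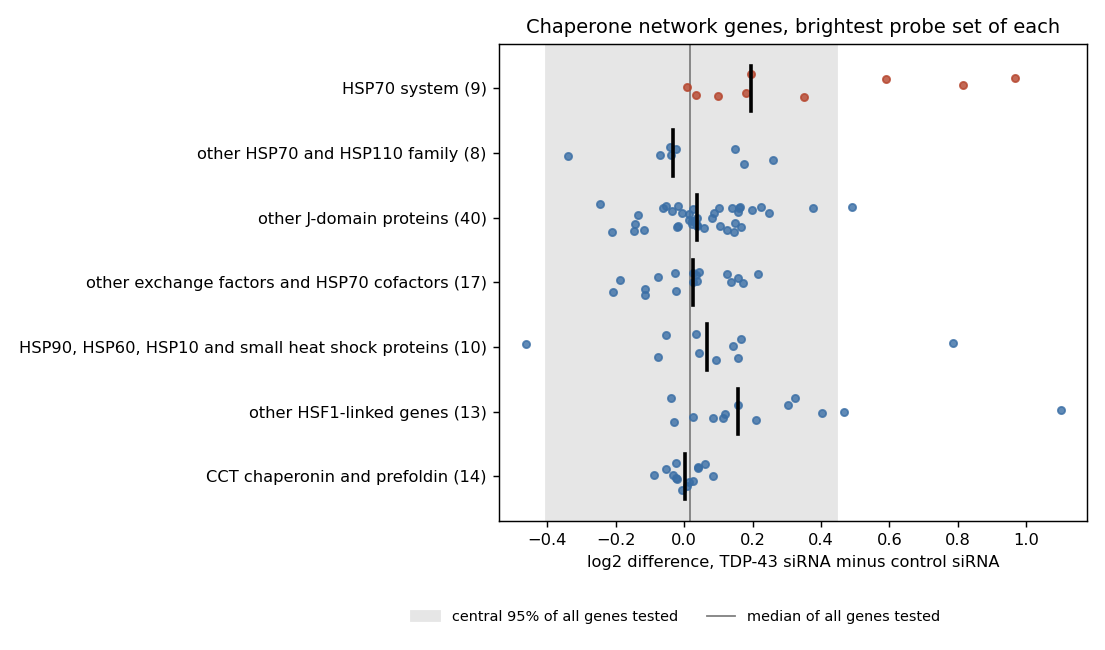
Log2 difference (x axis, TDP-43 siRNA minus control siRNA) of each gene's brightest probe set, by list (rows, number of genes in brackets), with the 9 HSP70 system genes at the top. Black bars are list medians, the grey band holds the central 95% of all genes tested (-0.40 to 0.45), and the grey line is their median. Medians of the other lists lie between -0.03 and 0.16.

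Among 8 other HSP70 and HSP110 family genes 0 passed (1 at an unadjusted p below 0.05), 3 lay above 0 and the median was -0.03. Hspa2, a relative best known from the testis, was at 0.26 (SE 0.11, limma adjusted p = 0.386) and Hspa9, the mitochondrial HSP70, at 0.18 (SE 0.08, limma adjusted p = 0.451). Among 40 other J-domain genes 0 passed (4 unadjusted), and 27 lay above 0 (median 0.04). Dnajb4 read 234, 215 and 249 in TDP-43 siRNA arrays, against 171, 142 and 175 in control arrays (0.49, SE 0.13, limma adjusted p = 0.179). Dnaja4 read 1759, 1808 and 2313 in TDP-43 siRNA arrays, against 1316, 1449 and 1753 in control arrays (0.38, SE 0.13, limma adjusted p = 0.287). For both the groups did not overlap, and the third TDP-43 siRNA array was the highest.

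Among 17 other exchange factors and HSP70 cofactors 0 passed (3 unadjusted), and 10 lay above 0 (median 0.03). Stub1, the ubiquitin ligase CHIP that tags HSP70 clients, read 6267, 6513 and 6078 in TDP-43 siRNA arrays, against 7437, 6981 and 7377 in control arrays (-0.21, SE 0.05, limma adjusted p = 0.156). Its 3 TDP-43 siRNA arrays lay below all controls. Chordc1, an HSP90 co-chaperone, was at 0.22 (SE 0.08, limma adjusted p = 0.335).

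Among 10 genes of HSP90, HSP60, HSP10 and small heat shock proteins 0 passed (2 unadjusted), and 7 lay above 0 (median 0.07). Hspb1, the small heat shock protein HSP25, read 633, 568 and 1367 in TDP-43 siRNA arrays, against 367, 391 and 646 in control arrays (0.79, SE 0.31, limma adjusted p = 0.368). As for Hspa1b, the third array was the highest of each group, and the difference was 0.39 without the third TDP-43 siRNA array. Hspb6 read 862, 678 and 612 in TDP-43 siRNA arrays, against 1154, 1042 and 789 in control arrays (-0.46, SE 0.16, limma adjusted p = 0.290).

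Among 13 other genes linked to HSF1 0 passed (3 unadjusted), and 11 lay above 0 (median 0.16). Hmox1, the heme oxygenase of the stress response, read 1042, 968 and 1304 in TDP-43 siRNA arrays, against 823, 796 and 751 in control arrays (0.47, SE 0.11, limma adjusted p = 0.126). Its groups did not overlap. Jun was at 0.30 (SE 0.12, limma adjusted p = 0.353). Fos, named after its values were seen, had the largest difference of the list, 1.10 (SE 0.63, limma adjusted p = 0.553). Among 14 genes of the CCT chaperonin and prefoldin, which fold actin and tubulin, 0 passed (0 unadjusted) and 7 lay above 0 (median 0.00), with Tcp1 at 0.08 (SE 0.06, limma adjusted p = 0.655) and Cct4 at 0.06 (SE 0.05, limma adjusted p = 0.711).

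Among the 10 beta cell markers 0 passed (1 unadjusted), with Slc30a8, the granule zinc transporter, at 0.25 (SE 0.06, limma adjusted p = 0.149) and Pcsk1, a prohormone convertase, at 0.12 (SE 0.09, limma adjusted p = 0.677). Among the 5 markers of other cell types that were kept 0 passed (1 unadjusted, Sst). Sst, the delta cell hormone, read 97.3, 43.2 and 46.7 in TDP-43 siRNA arrays, against 9.92, 42.1 and 23.3 in control arrays (1.03, SE 0.39, limma adjusted p = 0.353), and Lyz2 was at 0.26 (SE 0.27, limma adjusted p = 0.767). The part of such markers in the HSP70 values was not tested.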

How the data were processed

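Total RNA from 6 samples was labelled as biotinylated cRNA and hybridised to mouse 3' arrays, per the labels' protocols. The deposited signal intensity is linear and was made by the authors with MAS5, as the submitters' processing notes name it with no version number. The trimmed mean (highest and lowest 2% left out) was 500.003 on every array, so each array appears scaled to a common target. Differences were computed on log2 values of the deposited intensity after adding 12, with no further scaling. Detection calls were not used.

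The platform annotation named the probe sets (34945 with 1 gene, 932 with several, 9160 with none listed), with symbols updated through Entrez numbers from RefSeq genes of GRCm38.p6. Control probe sets and the 40% with the lowest mean signal (below 41.5) were left out. The two-sided test was limma 3.58.1 (R 4.3.3), with eBayes moderation along an intensity trend and p-values adjusted by Benjamini-Hochberg over all probe sets kept. The number of arrays limits the precision. The fit was tested on simulated data with independent noise on each array. That test did not cover deviations shared between arrays. Promoters came from RefSeq (GRCm38.p6), and figures from matplotlib 3.10.9.

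The members, gene lists and tests were chosen with earlier results of these data known. The text names all members, Tardbp, the 2 genes with the smallest p and any past the threshold in each list, and the 5 genes nearest to Hspa1a. The labels state no block, so the replicate number served as a block only in an alternative fit. Same-numbered arrays deviated together for number 3 but not for numbers 1 and 2 (r of deviations from the group means, across probe sets, -0.11, -0.13 and 0.25 for numbers 1, 2 and 3). Alternatives were other pseudocounts, filters, scalings and variance models, array weights, the replicate block, and the removal of single arrays. The removal of both arrays numbered 3 was added after seeing the data.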

Additional observations from a re-analysis of the deposited data

How the results depend on the processing

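The 158 probe sets called became 69 with no filter on low signals and 0 with no intensity trend (limma, with 2896 at an unadjusted p below 0.05). They ranged from 56 to 325 when 1 array was left out (325 without the third control array, 77 or fewer for each other array) and were 241 without both arrays numbered 3. The 0 network genes called became 1 with the replicate block (Hspb1) and 3 without both arrays numbered 3 (Fos, Jun and Hspb1, with Fos named after its values were seen). With the replicate block 156 probe sets were called, 4 of them members (Hspa1a and the 3 of Hspa1b), and the Hspa4 probe set was not. Without both arrays numbered 3 the same 4 member probe sets were among the 241 called. Without the third TDP-43 siRNA array alone 0 of the 24 were called, beside 62 of all probe sets. Without the second TDP-43 siRNA array alone 2 of the 24 were called, Hspa1a and Hspa4 1435194_at, beside 77 of all probe sets. The numbers do not pair the arrays in order, though the deviations of the arrays numbered 3 correlated best with each other (r = 0.245). The first TDP-43 siRNA array correlated best with the second control array (0.291). The second TDP-43 siRNA array correlated best with the first control array (0.215). All other correlations between the groups were negative. Whether these arrays share a block was not tested, and no fit used such crosswise pairs. The count of member probe sets called lay between 0 and 4 over the 17 alternatives. Of the 24 member differences 20 kept their sign in every alternative run, and 4 near 0 or of dim signal did not: Bag3, Hspa8 1455789_x_at and 1431182_at, and Hspa4l 1439093_at. The other filters, the variance models and the replicate block leave a difference unchanged by their construction. Only the remaining alternatives could turn a sign. Signals near the array's low end were not resolved beyond the filter, and precision rests on 3 arrays per group.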
